A study of Mus musculus with 8 samples.

Results

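Programmed DNA breaks in meiosis are made, and then used to invade the homologous chromosome, by the products of the 9 genes described here, which were followed in the testes of postnatal day 12 mice. They were chosen by name as *Prdm9*, *Spo11*, *Mei1*, *Mei4*, *Dmc1*, *Psmc3ip*, *Mnd1*, *Meiob* and *Spata22*, and are 9 of the 24651 gene symbols counted. Whole testes, 1 pair per library, were taken from 4 wild type and 4 *Morc2b*-/- males of a mixed strain background, born to intercrosses of heterozygotes. The series' design text calls the controls *Morc2b*+/-, whereas every control library is labelled wild type, and the libraries are named here by their labels. In the mutant allele, exon 2, which holds the whole coding region of *Morc2b*, was replaced by a PGKNeo selection cassette, so the coding region is missing from every cell of the animal. The mutant line goes back to 1 embryonic stem cell clone of C57BL/6 x 129S4/SvJae origin.

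In leptotene spermatocytes, PRDM9 marks hotspots on chromatin, and the SPO11 complex, which needs accessory proteins such as MEI1 and MEI4, cuts both DNA strands there. The resected ends are coated by single-strand binding proteins, among them the pair MEIOB and SPATA22. The recombinase DMC1 then forms filaments that search for the homologous chromosome, and the HOP2-MND1 pair (HOP2 is encoded by *Psmc3ip*) helps them to invade it. At day 12 the first wave of spermatogenesis is passing through these stages. By the study's own measurements, *Morc2b* RNA was not detected before day 12, was low at day 12 and rose afterwards. The study places its start in zygotene spermatocytes, the stage after leptotene.

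The libraries held 27144796 to 36941755 counts on transcripts. Values are given as CPM, read counts set relative to the library size after TMM scaling, as edgeR computes them. *Morc2b* was counted at 11.7, 16.2, 0.857 and 40 CPM in wild type replicates 1 to 4 and at 0.323, 0.27, 3.29 and 0.0688 CPM in *Morc2b*-/- replicates 1 to 4. The library labelled wild type replicate 3 was thus below the library labelled *Morc2b*-/- replicate 3, and the targeted gene did not separate all libraries by label. Its log2 fold change, *Morc2b*-/- over wild type, was -4.09 (SE 1.21, edgeR adjusted p = 0.9998, unadjusted p = 0.00793). Summed pachytene markers were 236, 212, 123 and 431 CPM in wild type replicates 1 to 4. Like *Morc2b*, they were lowest in replicate 3 and highest in replicate 4, while replicates 1 and 2 stood in the other order. In *Morc2b*-/- they were 124, 155, 261 and 156 CPM, where the highest library, replicate 3, was shared with *Morc2b* and the lowest was not. The cause was not tested. Spermatid markers summed to 304 CPM in *Morc2b*-/- replicate 3 and to 150 CPM in wild type replicate 1, while the other libraries had 2.01 to 34.2 CPM, and the epididymal sum of wild type replicate 1 was 250 CPM. By the study's account, the most advanced germ cells at day 12 are at the zygotene stage, and round spermatids first appear at a later age. These sums are therefore not read as spermatids of these testes, and the source of the RNA was not tested. All 12 markers of leptotene and zygotene spermatocytes, the cells in which the 9 genes act, were above 1 CPM on average.

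None of the 9 genes passed the test between genotypes, and neither did any of the 13507 genes tested (0% called at an adjusted p under 0.05, edgeR quasi-likelihood test). At an unadjusted p under 0.05, 0 of the 9 genes and 1.84% of all tested genes were counted. Their log2 fold changes, *Morc2b*-/- over wild type, ran from -0.20 for *Mnd1* to 0.17 for *Mei4*. Of the 9, 4 were above 0, beside 50.8% of all tested genes, and their median was -0.05 beside 0.0022 for all tested genes. Each edgeR adjusted p was 0.9998. Libraries were also left out in 2 reduced sets, without wild type replicate 1 and *Morc2b*-/- replicate 3 or without replicate 3 of both genotypes. In these, 0 genes were called and the lowest unadjusted edgeR p of the 9 was 0.233 and 0.161. With fewer libraries the test is weaker, so this adds no support. The log2 fold change of *Morc2b* itself moved to -6.38 (SE 1.37) and -6.63 (SE 0.67). The second set was chosen by its *Morc2b* values, so no test of *Morc2b* is read from it. In whole testes, fewer spermatocytes and less RNA per spermatocyte cannot be told apart.

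**Figure D1:**
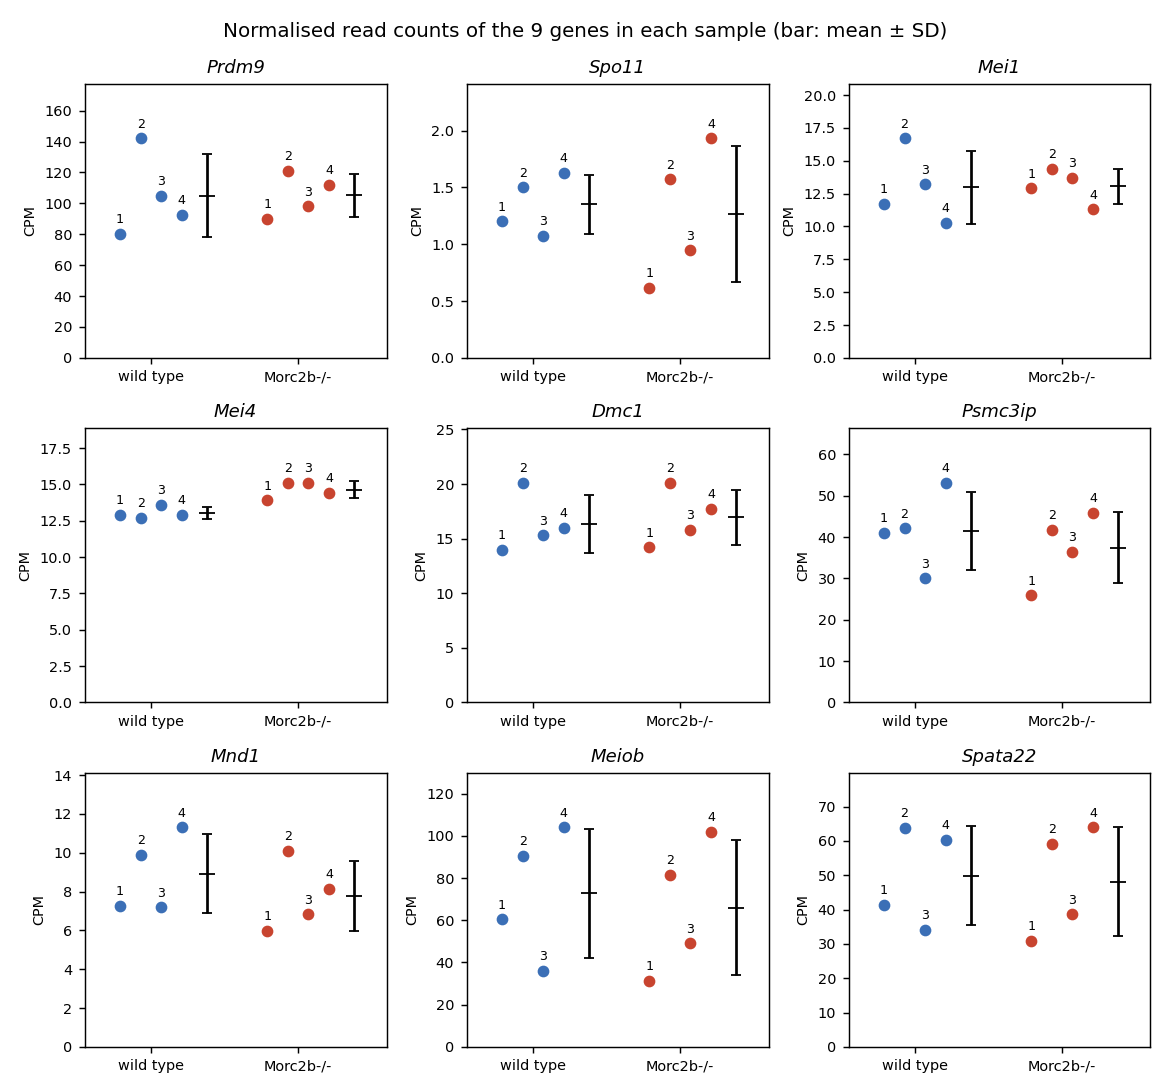
CPM (vertical axis, from 0) of the 9 genes in the 4 wild type (blue) and 4 *Morc2b*-/- (red) libraries, numbered by replicate, with the mean and SD of each genotype as bars. The genotypes overlap for every gene but *Mei4*, and *Meiob* runs from 31.1 to 104 CPM.

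The first group is the machinery of break formation. *Prdm9* (chromosome 17, 15680043 to 15701318, minus strand, genome build NCBIM37/mm9, as for all gene positions here) encodes the zinc finger histone methyltransferase that places the breaks. It was counted at 80.1, 142, 105 and 92.6 CPM in wild type replicates 1 to 4 and at 89.9, 121, 98 and 112 CPM in *Morc2b*-/- replicates 1 to 4. Both the lowest and the highest library were wild type, and all the mutant libraries lay between them. The means were 105 ± 26.8 and 105 ± 14 CPM (SD, n = 4 each), a log2 fold change of 0.0041 with a 95% interval of -0.38 to 0.39.

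*Spo11* (chromosome 2, 172803201 to 172819077, plus strand) encodes the topoisomerase-like protein that cuts the DNA. It had the lowest counts of the 9 genes, with 44, 41, 30 and 52 counts in the wild type libraries and 19, 58, 33 and 56 in the *Morc2b*-/- libraries. In CPM these were 1.2, 1.5, 1.07 and 1.63 for wild type and 0.614, 1.57, 0.945 and 1.93 for *Morc2b*-/-. The mutant libraries held both the lowest and the highest value. The log2 fold change was -0.10 with a 95% interval of -0.87 to 0.68, and counting error alone was 13.1% to 22.9% of a library's value. Of 4 listed *Spo11* transcripts, 2 had counts. Reads that fell on more than 1 transcript were set aside as ambiguous when the counts were made, so the level of *Spo11* is a lower limit. The same holds for *Mei1*, with 2 listed transcripts, and *Dmc1*, with 3, of which 1 had counts. The fold changes and ratios of these genes likewise rest only on the reads that were kept.

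*Mei1* (chromosome 15, 81900426 to 81957244, plus strand) is needed for break formation. It was at 11.7, 16.7, 13.2 and 10.3 CPM in wild type and at 12.9, 14.4, 13.7 and 11.3 CPM in *Morc2b*-/- replicates 1 to 4. The mutant range lay inside the wild type range, with replicate 2 highest and replicate 4 lowest in both genotypes. The log2 fold change was 0.01 with a 95% interval of -0.34 to 0.36.

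*Mei4* (chromosome 9, 81757277 to 82099614, plus strand) encodes a partner of REC114 and IHO1 on the chromosome axis. It was at 12.9, 12.7, 13.6 and 12.9 CPM in the wild type libraries and at 13.9, 15.1, 15.1 and 14.4 CPM in the *Morc2b*-/- libraries. All 4 mutant libraries lay above all 4 wild type libraries, which held for no other gene of the 9. Such a gap in this direction was present for 0.407% of all tested genes, and in either direction for 1.29%. The means were 13.1 ± 0.404 and 14.6 ± 0.605 CPM (SD, n = 4 each). Per library, *Mei4* rested on 347 to 560 counts, with a counting error of 4.23% to 5.37%, so the step between the highest wild type and the lowest mutant library was within counting error.

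The fold of *Mei4* was 1.12 with a 95% interval of 0.989 to 1.27, a log2 fold change of 0.17 (edgeR unadjusted p = 0.07, adjusted p = 0.9998). The two-sided exact permutation test gave p = 0.0286, the smallest that 4 against 4 allows, and 1 after adjustment over all tested genes. *Mei4* therefore did not pass the test. Its difference between genotypes was larger than its own SD of log2 CPM within genotypes, 0.05, a spread no larger than its counting error.

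**Figure D2:**
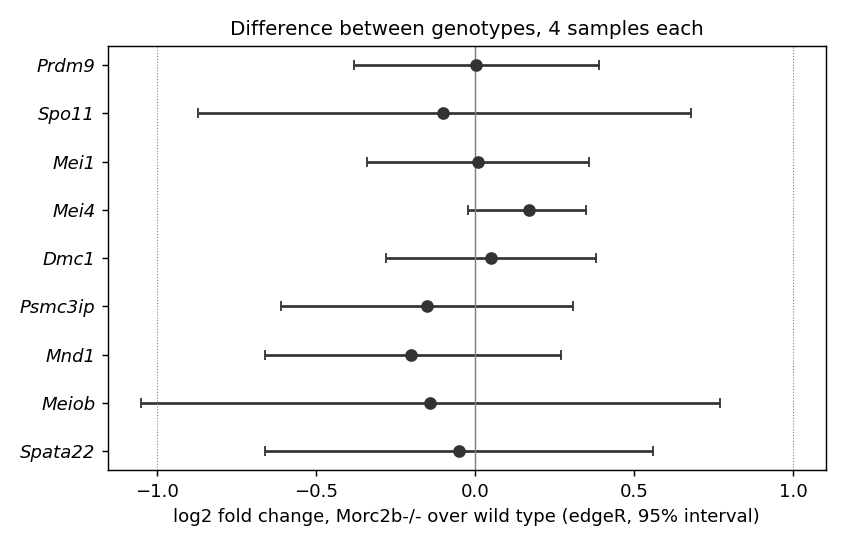
Log2 fold change of each of the 9 genes, *Morc2b*-/- over wild type (points, edgeR), with its 95% interval (bars), from 4 libraries per genotype. Every interval holds 0, and the widest, that of *Meiob*, runs from -1.05 to 0.77.

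The strand exchange genes follow. *Dmc1* (chromosome 15, 79391930 to 79435529, minus strand) encodes the recombinase made only in meiosis. It was at 14, 20.1, 15.3 and 16 CPM in wild type and at 14.2, 20.1, 15.8 and 17.7 CPM in *Morc2b*-/- replicates 1 to 4. Replicate 2 was highest and replicate 1 lowest in both genotypes, and the ranges overlapped almost wholly. The log2 fold change was 0.05 with a 95% interval of -0.28 to 0.38.

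*Psmc3ip* (chromosome 11, 100953137 to 100956750, minus strand) was at 41.1, 42.1, 30 and 53.1 CPM in wild type and at 25.9, 41.7, 36.4 and 45.9 CPM in *Morc2b*-/-. *Mnd1* (chromosome 3, 83891856 to 83959708, minus strand), which encodes the other subunit of that pair, was at 7.25, 9.9, 7.18 and 11.3 CPM in wild type and at 5.98, 10.1, 6.82 and 8.15 CPM in *Morc2b*-/-. For both genes the highest library was wild type replicate 4, the lowest was *Morc2b*-/- replicate 1, and the genotypes overlapped. The log2 fold changes were -0.15 (95% interval -0.61 to 0.31) for *Psmc3ip* and -0.20 (-0.66 to 0.27) for *Mnd1*.

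*Meiob* (chromosome 17, 24941327 to 24976732, plus strand) and *Spata22* (chromosome 11, 73143243 to 73169415, plus strand) encode the single-strand binding pair. *Meiob* was at 60.4, 90.7, 36.1 and 104 CPM in wild type and at 31.1, 81.7, 49 and 102 CPM in *Morc2b*-/-. *Spata22* was at 41.4, 63.7, 34.1 and 60.3 CPM in wild type and at 30.8, 59, 38.6 and 63.9 CPM in *Morc2b*-/-. In both genotypes replicates 2 and 4 were high and replicates 1 and 3 low for both genes, and the ranges overlapped. *Meiob* varied 2.87-fold among wild type libraries and 3.28-fold among *Morc2b*-/- libraries, while its means, 72.7 ± 30.4 and 65.9 ± 31.9 CPM (SD, n = 4 each), gave a log2 fold change of -0.14 (95% interval -1.05 to 0.77). For *Spata22* it was -0.05 (-0.66 to 0.56).

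How far a gene varied among replicates set what could be seen between genotypes. The SD of log2 CPM within genotypes had a median of 0.32 over the 9 genes, beside 0.19 over all tested genes, and 8 of the 9 were above that median. *Meiob* had an SD of 0.73, larger than 95.7% of tested genes, and *Spo11*, at low counts, 0.53. *Spata22* followed with 0.47. *Mei4*, with 0.05, stood at the other end and exceeded only 3.32% of tested genes. That SD is no larger than its counting error of 4.23% to 5.37%, so it is not read as a trait of the gene. edgeR, which draws a gene's spread towards that of other genes, put the variation between replicates at 39.3% for *Meiob* and 12% for *Mei4*. From the same 4 libraries per genotype, its interval for *Meiob* was several times as wide as that for *Mei4*.

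**Figure D3:**
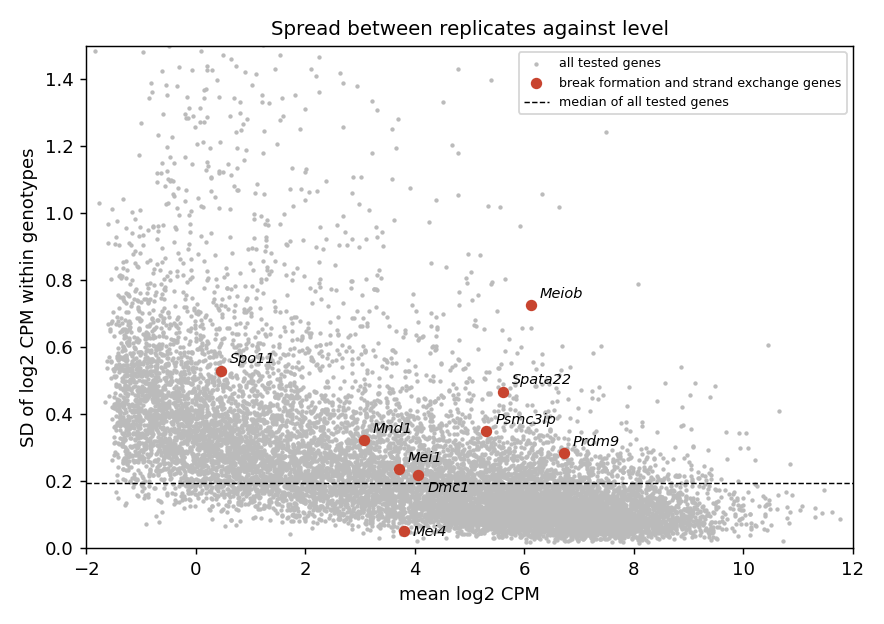
SD of log2 CPM within genotypes (vertical axis) against mean log2 CPM (horizontal axis), each grey point 1 of the tested genes, the 9 genes in red, the dashed line the median of 0.19; 158 genes lie outside the axes. *Meiob* stands high for its level at 0.73 and *Mei4* low at 0.05.

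To compare levels between genes, CPM was divided by the transcript length in kilobases for the 6 members with a single listed transcript. In wild type, *Meiob* was at 42.7 ± 17.9, *Spata22* at 39.1 ± 11.3, *Psmc3ip* at 32.2 ± 7.31 and *Prdm9* at 30.4 ± 7.75 CPM per kilobase (SD, n = 4). These 4 neighbours did not differ beyond their spread. *Mnd1*, at 10.2 ± 2.31 CPM per kilobase, and *Mei4*, at 4.16 ± 0.129, were lower, and their ranges over the 8 libraries overlapped neither each other nor those of the 4. The order was the same in *Morc2b*-/- but for *Prdm9* (30.4 ± 4.06), which was above *Psmc3ip* (29 ± 6.7) by less than their spread.

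The libraries differed together. Centred on each gene's mean over the 8 libraries and averaged over the 9 genes, log2 CPM was -0.14, 0.29, -0.23 and 0.19 in wild type replicates 1 to 4 and -0.45, 0.25, -0.15 and 0.23 in *Morc2b*-/- replicates 1 to 4. The lowest library was *Morc2b*-/- replicate 1, which held the lowest value of 5 of the 9 genes. *Prdm9*, *Mei1*, *Mei4* and *Dmc1* did not follow *Meiob* throughout, since wild type replicate 4, the highest library for *Meiob*, was below their means. For *Spo11*, *Dmc1*, *Psmc3ip*, *Mnd1*, *Meiob* and *Spata22*, 6 of the 9 genes (66.7%), all 4 even-numbered libraries lay above all 4 odd-numbered libraries, whatever the genotype, beside 7.91% of all tested genes (1068). The split was noticed after the values were seen, the labels do not say what the numbers stand for, and the genes share their libraries. Summed leptotene and zygotene markers, led by *Sycp2*, were 4151, 5564, 3800 and 5501 CPM in wild type and 3425, 4671, 3793 and 5564 CPM in *Morc2b*-/- replicates 1 to 4, and were also lowest in *Morc2b*-/- replicate 1. They made the same split, with every even-numbered library above every odd-numbered one. Summed spermatogonial markers, led by *Uchl1*, made it the other way round, at 1342, 1190, 1411 and 1170 CPM in wild type and 1372, 1262, 1366 and 1248 CPM in *Morc2b*-/- replicates 1 to 4. Summed Leydig cell markers, led by *Cyp17a1*, were highest in *Morc2b*-/- replicate 1, at 621 CPM, and next in wild type replicate 3, at 565 CPM, against 106 to 325 CPM in the others. The Leydig sums did not follow the even and odd numbers in both genotypes. The part of any of these marker lists in the spread of the 9 genes was not tested.

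**Figure D4:**
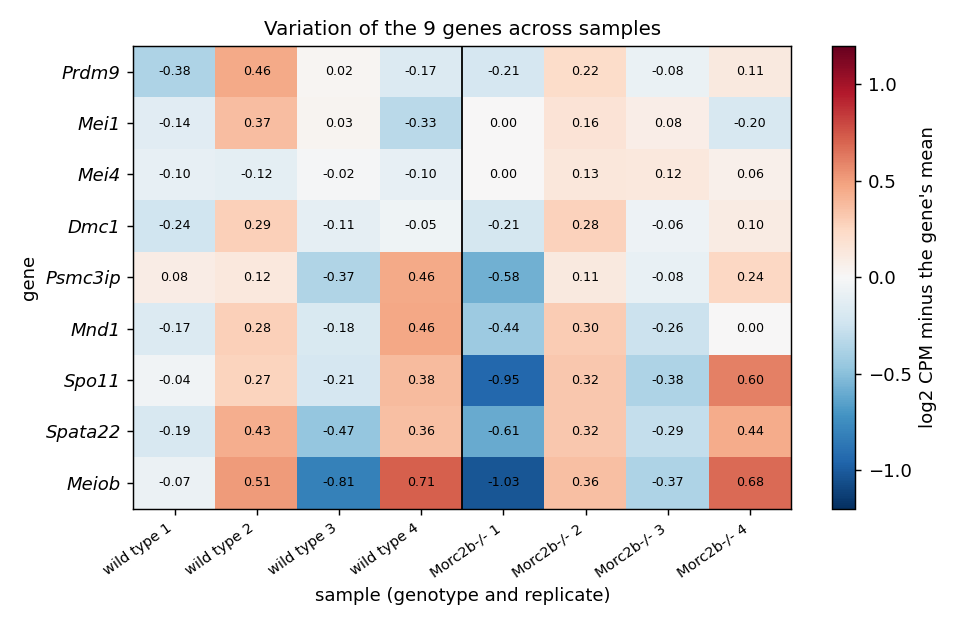
Log2 CPM minus the gene's mean over the 8 libraries (colour and printed value) for each of the 9 genes (rows) in each library (columns), with a line between the genotypes. *Meiob*, *Spata22* and *Spo11* hold the strongest colours, lowest in *Morc2b*-/- replicate 1, and the *Mei4* row is nearly blank.

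Partners were set against each other within a library, where the scaling cancels. These ratios of CPM are not corrected for transcript length, so only their variation between libraries is read. The ratio of *Mnd1* to *Psmc3ip* ran from 0.176 to 0.241 over the 8 libraries, 1.37-fold, although *Psmc3ip* itself varied 2.05-fold. The ratio of *Spata22* to *Meiob* was 0.685, 0.702, 0.943 and 0.582 in wild type and 0.992, 0.722, 0.787 and 0.627 in *Morc2b*-/- replicates 1 to 4. It was highest in the libraries with the least *Meiob*, so the pair did not vary in proportion. By contrast, *Meiob* to *Prdm9* ran from 0.343 to 1.12, 3.27-fold; that pair was chosen after the values were seen. *Dmc1* to *Psmc3ip* varied 1.83-fold, *Mei4* to *Mei1* 1.68-fold and *Dmc1* to *Spo11* 2.52-fold. The genotypes overlapped in all 6 of these ratios.

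**Figure D5:**
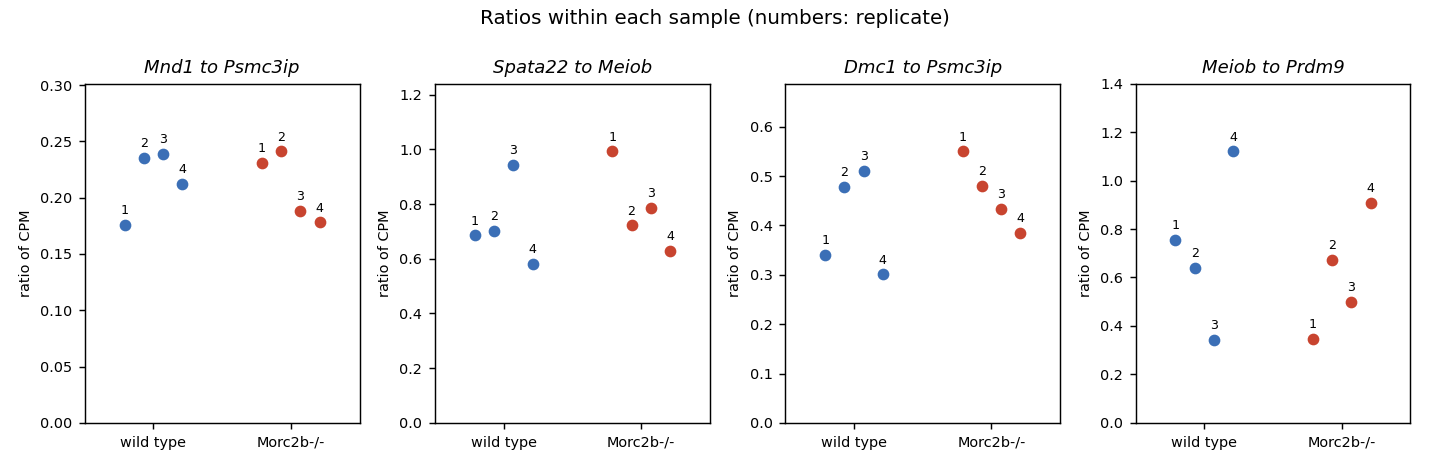
Ratio of CPM within each library (vertical axes, from 0) for 4 gene pairs in wild type (blue) and *Morc2b*-/- (red), numbered by replicate. *Mnd1* to *Psmc3ip* stays within 1.37-fold and *Dmc1* to *Psmc3ip* within 1.83-fold, whereas *Meiob* to *Prdm9* spans 3.27-fold in both genotypes together.

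No gene of the wider pathway passed the test between genotypes either. Of 42 further genes of break formation, end processing and strand exchange, 33 passed the filter on low counts, 0 were called and 0 had an unadjusted edgeR p under 0.05. Over all tested genes, 0% were called and 1.84% had such an unadjusted p. By sign, 11 were above 0 and 22 below, beside 50.8% above 0 over all tested genes. The median log2 fold change was -0.02, beside 0.0022 over all tested genes, with a range of -0.49 to 0.13. The 9 tested break formation genes had a median of -0.0005, the 5 of end processing and checkpoint -0.0013, and the 19 of single-strand binding and strand exchange -0.03. The other 9 of the 42 were not tested: *Ankrd31* had no listed symbol, and *Rbbp8*, *Blm*, *Rpa1*, *Palb2*, *Rad51d*, *Rad51ap1*, *Swi5* and *Fignl1* were listed at or near 0. Reads set aside as ambiguous between transcripts are missing from these values, so a listed 0 is not read as absence of the RNA.

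Among the pathway genes, the largest difference was that of *Mcmdc2*, which encodes an MCM-like protein needed for strand invasion, at 19.3 ± 10.2 CPM in wild type and 13.8 ± 5.79 CPM in *Morc2b*-/- (SD, n = 4 each). Its log2 fold change was -0.49 with a 95% interval of -1.39 to 0.40, and it varied 3.96-fold over the 8 libraries, so the difference was within the replicate spread. The next were *Brca2*, which loads recombinases (-0.27, SE 0.42, at 0.243 to 1.04 CPM), and *Rad51c*, which acts in recombination repair (-0.20, SE 0.20). *Hormad2*, of the unsynapsed axis, was at -0.18 (SE 0.21). *Brme1*, a partner of the BRCA2-binding protein HSF2BP, was at -0.18 (SE 0.22, at only 0.544 to 0.857 CPM). *Tex15*, needed for recombinase loading and for silencing of transposons, was at -0.17 (SE 0.17). All 6 had genotypes that overlapped.

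Genes of any function were ranked by how closely their log2 CPM followed the mean pattern of the 9 genes over the 8 libraries, as the SD of the difference, among 11552 genes with a mean of at least 1 CPM. The closest were *Iqcb1* (0.0341), *Atr* (0.0608), *Gm16023* (0.0629), *Strbp* (0.0647) and *Meioc* (0.0688), against a median of 0.324 for all those genes. *Atr* encodes a DNA damage kinase that acts on unsynapsed chromosomes, and *Meioc* a protein that keeps spermatocytes in meiotic prophase. Of the 9 genes themselves, which formed the pattern, *Mnd1* was nearest to it at 0.143 and *Meiob* farthest at 0.425. The mean pattern itself had an SD of 0.275, the value a gene with no variation would score. *Mei4* (0.297), *Mei1* (0.334) and *Meiob* scored above that. The score counts the size of a gene's swings as well as their direction. *Meiob* swung farthest of the 9, with an SD of 0.73 within genotypes, so its score is not read as unlikeness in direction. *Mnd1* stood only at rank 160 of all the genes. These likenesses are descriptions over 8 libraries, which also differ in their marker sums and depth.

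Promoter sequence was searched for 4 motifs, on both strands, in the RefSeq promoter windows of 300 bases (build GRCm38.p6). The motifs were TTCCCGC, bound by E2F6, CACGTG, the E-box, CNCCTCAG, bound by STRA8, and AACNGTT, bound by A-MYB. They are held by 4.6%, 7.15%, 7.94% and 4.45% of 32851 promoters, in that order. Of the 9 genes, 7 had an entry, and *Spo11* and *Meiob* did not. A match was found for *Prdm9* and *Spata22*, whose windows are shown because each holds an E2F6 motif; this factor silences germ cell genes in other tissues. The windows are chr17:15564386-15564415 on the minus strand and chr11:73329715-73329744 on the plus strand, written in the direction of the gene, with the motifs in capitals.
Prdm9: ctccgcttttcttgTTCCCGCCCCTCAGcc
Spata22: agcctcccgcgggttttcagagGCGGGAAg
In *Prdm9* the E2F6 motif begins at -47 and a STRA8 motif at -41 from the annotated start, counted as 0, so that they share 1 base, and a further STRA8 motif begins at 14. In *Spata22* the E2F6 motif lies on the reverse strand, from -4. *Prdm9* has 2 entries, and the matches lie in 1 of them. A match is no evidence of binding, and *Prdm9* and *Spata22* differed by log2 fold changes of 0.0041 and -0.05.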

How the data were processed

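Polyadenylated RNA was sequenced with a stranded kit from 8 pairs of day 12 testes. The authors trimmed reads, mapped them to mm9 with TopHat and estimated FPKM with Cufflinks and Cuffdiff, per the study's methods. The files deposited by the authors hold raw counts per RefSeq transcript; the counting program and its strand setting are not given in the sources used here. Reads on more than 1 transcript (26.77% to 28.85% of unique reads) were set aside in the files as ambiguous, which lowers genes with several or overlapping transcripts. Of 35819 transcripts, 35522 matched a symbol and were summed to 24651 genes; the other 297 held 0.484% of counts.

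Genotypes, 4 against 4, were compared with edgeR 4.0.16 (R 4.3.3; TMM, filterByExpr, quasi-likelihood test, Benjamini-Hochberg over 13507 genes, threshold 0.05) and exact permutation tests of log2 CPM (prior count 2, 70 splits). The 95% intervals come from the edgeR fit. p-values measure the spread between these animals. Alternatives were DESeq2 1.42.0, limma-voom 3.58.1, other scaling and filters, single transcripts, a replicate block, and each library left out. No 2 libraries agreed within sampling noise (lowest chi-square per degree of freedom 7.38, wild type replicate 3 against *Morc2b*-/- replicate 1). Within a genotype the lowest was 19.28, between *Morc2b*-/- replicates 2 and 3. On simulated counts for 13331 genes, edgeR called 182 of 194 genes changed by a log2 value of 2 (93.8%), with 2.67% false calls. Genes were drawn independently there, whereas in the real libraries they varied together. In the real libraries *Morc2b*, at a log2 fold change of -4.09, was not called (edgeR adjusted p = 0.9998). The 93.8% is therefore not read as the recovery in these data. The log2 fold changes of the 9 genes, -0.20 to 0.17, are far smaller, and recovery at that size was not tested. Counting errors cover counting only.

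Named genes were the 9 genes, *Morc2b*, the 6 pathway genes with the largest absolute log2 fold change and any with an unadjusted p under 0.05, and the 5 genes most like the mean pattern; 1 further gene is not reported here. The genes, lists and rules were chosen with earlier results of these data known. Gene positions and transcript lengths are from GENCODE M1, where *Meiob* has the older symbol 4930528F23Rik. Over the 8 libraries, summed markers ran from 123 to 431 CPM for pachytene spermatocytes (led by *Tbpl1*) and from 7450 to 9058 CPM for Sertoli cells (*Clu*). For peritubular myoid cells (*Acta2*) they ran from 784 to 1694 CPM and for macrophages (*Mrc1*) from 128 to 180 CPM. *Tnp1* led the spermatid and *Spink8* the epididymal list. *Gfra1*, *Kit*, *Ccna1*, *Acr*, *Insl3* and *Lcn5* had at most 3 counts in every library. Reads set aside as ambiguous are missing here too, so these counts are not read as absence of the RNA.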

Additional observations from a re-analysis of the deposited data

Results flagged for a closer look

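*Morc2b* in *Morc2b*-/- replicate 3 stood apart from the other mutant libraries, at 3.29 CPM (115 counts) against 0.323, 0.27 and 0.0688 CPM (10, 10 and 2 counts). The gap to the nearest of them was 0.921 of the group's range, above Dixon's critical value for 4 samples. Among 20 groups examined, chance alone flags about 1 in 20. The same library had the highest summed spermatid markers, 304 CPM. Whether the counts fall within the deleted exon 2 was not tested, since the counts are per transcript.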

How the results depend on the processing

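No gene was called under any edgeR or limma setting. DESeq2 called 1, *Pkmyt1* (log2 fold change -0.49, DESeq2 adjusted p = 0.00931), which is none of the 9 genes. Genes at an unadjusted p under 0.05 numbered 249, 262 with DESeq2, 422 without the low-count filter, 204 to 504 with 1 library left out and 572 with the replicate block, under which the log2 fold change of *Mei4* was 0.16. Over all tested genes, deviations from the genotype means correlated at r = -0.322 to 0.453 in the 4 same-numbered pairs. In the 12 others r was -0.498 to 0.614, so the numbers were not taken to pair the libraries. The 4 highest values took each library once. They were wild type replicate 1 with *Morc2b*-/- replicate 3 (0.614), 3 with 1 (0.516), 4 with 4 (0.453) and 2 with 2 (0.245). No fit used these matches, and their cause was not tested. For several of the 9 genes same-numbered libraries did lie together, and the block lowered the SE of *Meiob* from 0.40 to 0.21, of *Spata22* from 0.27 to 0.11 and of *Dmc1* from 0.14 to 0.07, with log2 fold changes of -0.17, -0.07 and 0.05 and none called. In the permutation test of *Mei4*, sign flips within the 4 same-numbered pairs gave 0.16 with an exact p = 0.125, the smallest possible. Differences of the 9 genes near 0 changed sign. *Prdm9* was -0.0004 with DESeq2, -0.0022 with at least 10 counts required in every sample, -0.0005 as a transcript, and -0.08 without wild type replicate 1 and *Morc2b*-/- replicate 3. *Mei1* was -0.06 in that reduced set and -0.0013 without both replicates 3; these 2 sets were chosen after seeing the data. When each library was dropped in turn, log2 fold changes ran from -0.11 to 0.19 for *Prdm9*, -0.37 to 0.13 for *Spo11*, -0.09 to 0.16 for *Mei1*, -0.04 to 0.17 for *Dmc1*, -0.43 to 0.09 for *Meiob* and -0.22 to 0.11 for *Spata22*. It stayed above 0 for *Mei4* (0.15 to 0.19) and below 0 for *Psmc3ip* (-0.28 to -0.01), *Mnd1* (-0.35 to -0.07) and *Morc2b* (-6.23 to -3.26). The cause of these changes was not tested. Depth limited *Spo11*, at 19 to 58 counts per library.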
